A study of Mus musculus with 12 samples.

Results

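The genes of MHC class I presentation and the immunoproteasome were followed in splenic CD4+ T cells of mice with and without experimental periodontitis. The members are 10 of the 55414 gene records in the deposited counts, of which 28442 had a count in at least 1 library. They were chosen by name: the classical heavy chains H2-K1 and H2-D1 with their light chain B2m, the peptide transporter genes Tap1 and Tap2 with the loading factor Tapbp, the immunoproteasome subunits Psmb8, Psmb9 and Psmb10, and the transactivator Nlrc5. The choice was made with earlier results of these data known, so shares of members set beside shares of all genes are a description only. All 10 were found and all 10 passed the filter on low counts in every comparison.

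RNA was sequenced from 12 libraries of CD4+ T cells, purified by negative selection from spleens of wild-type male BALB/c mice aged 18 weeks. In the ligature-induced periodontitis (LIP) group a silk ligature had been kept around the second maxillary molars on both sides for 14 days, whereas control (CTL) mice were anaesthetised but not ligated. Day 0 cells were taken straight after purification (CTL 88, 89 and 94; LIP 92, 93 and 94), and day 2 cells after 2 days of culture with IL-2 and antibodies to TCRβ and CD28 (CTL 92, 93 and 97; LIP 90, 96 and 97). By their treatment labels, CTL 92 and LIP 90 received anti-CD28, CTL 93 and LIP 96 received anti-CD29 in its place, and anti-CD30 stands for both libraries numbered 97, where the methods of the study name anti-CD28 alone, and a fit with this label as a block stands beside the day 2 comparison. There was no unstimulated culture, so time in culture and stimulation cannot be told apart. The sources do not say whether each library is 1 mouse, and p-values then measure only the spread between these libraries.

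Almost every nucleated cell shows class I molecules, in which a heavy chain and β2-microglobulin hold a short peptide from the cell's own proteins for inspection by CD8+ T cells. The proteasome cuts these peptides, the TAP transporter moves them into the endoplasmic reticulum, and tapasin holds the empty class I molecule beside TAP until a peptide fits. Interferons and lymphocyte activation are known to raise the immunoproteasome subunits, which replace the constitutive catalytic subunits and change which peptides are made, and NLRC5 is known to drive class I genes in lymphocytes.

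On the GRCm39 build with GENCODE M39 annotation, 7 of the 10 members lie on chromosome 17. Tapbp (chr17:34134873-34148267) and H2-K1 (chr17:34214987-34219321, minus strand) lie on the near side of a cluster of 4 members, and H2-D1 (chr17:35481691-35486475) on its far side. The cluster runs over 34870 bases and holds Psmb9 (chr17:34400960-34406738, minus strand), Tap1 (chr17:34405996-34416199), Psmb8 (chr17:34416690-34420428) and Tap2 (chr17:34422501-34435829). B2m (chr2:121977957-121983594), Psmb10 (chr8:106662362-106665077, minus strand) and Nlrc5 (chr8:95160984-95253900) lie outside the MHC. Tap1 and Psmb9 are read in opposite directions from a shared start, so that their 300-base promoter windows have 275 bases in common and their exons 743.

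RefSeq promoter windows, from 250 bases before the transcription start to 50 after it, were matched for 8 of the 10 members and not for Tap2 and Nlrc5. The windows come from a table of the GRCm38.p6 build, and each was found once, letter for letter, in GRCm39, whose positions are given. The letters are those of the reference genome and not of the BALB/c mice studied, which bear other class I alleles. Whether BALB/c promoters hold the same letters and motif matches was not tested. Those of the heavy chains, B2m and Tap1 are shown because class I promoters are the textbook case of a shared layout and because the heavy chain records are alike enough to make their counts uncertain. Capitals mark matches, on either strand, to a kappa B motif, an IRF core (AANNGAAA), the X2 box (TGACG) of the SXY module at which NLRC5 acts, and a CCAAT box (CCAAT).
H2-K1, chr17:34219258-34219557, minus strand: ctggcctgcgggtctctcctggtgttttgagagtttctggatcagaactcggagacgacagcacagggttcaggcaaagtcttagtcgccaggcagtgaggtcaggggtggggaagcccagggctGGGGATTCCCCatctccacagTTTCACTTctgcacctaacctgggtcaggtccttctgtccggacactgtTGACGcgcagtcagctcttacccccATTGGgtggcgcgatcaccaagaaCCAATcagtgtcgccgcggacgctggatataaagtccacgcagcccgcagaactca
H2-D1, chr17:35481820-35482119, plus strand: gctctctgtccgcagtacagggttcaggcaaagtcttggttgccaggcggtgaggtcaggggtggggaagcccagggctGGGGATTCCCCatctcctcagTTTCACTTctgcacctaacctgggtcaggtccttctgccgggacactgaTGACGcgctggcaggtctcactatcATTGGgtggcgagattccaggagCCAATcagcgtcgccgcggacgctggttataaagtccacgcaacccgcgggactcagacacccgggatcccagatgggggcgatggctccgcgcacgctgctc
B2m, chr2:121977918-121978217, plus strand: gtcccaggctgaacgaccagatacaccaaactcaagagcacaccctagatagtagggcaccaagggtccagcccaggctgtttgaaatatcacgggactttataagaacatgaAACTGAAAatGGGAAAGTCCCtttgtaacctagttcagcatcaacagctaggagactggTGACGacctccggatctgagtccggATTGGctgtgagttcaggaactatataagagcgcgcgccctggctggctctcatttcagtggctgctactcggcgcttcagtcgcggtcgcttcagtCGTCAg
Tap1, chr17:34406280-34406579, plus strand: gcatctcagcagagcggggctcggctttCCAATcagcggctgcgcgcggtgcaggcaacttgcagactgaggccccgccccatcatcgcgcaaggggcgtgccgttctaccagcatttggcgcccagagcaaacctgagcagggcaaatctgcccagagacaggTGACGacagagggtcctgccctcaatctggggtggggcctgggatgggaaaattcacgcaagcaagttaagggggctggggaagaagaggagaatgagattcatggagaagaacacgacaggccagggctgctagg
In the reference genome, the H2-K1 and H2-D1 windows were identical at 222 of 253 aligned bases (87.8%). Each held a kappa B match overlapping its own reverse complement, then an IRF core, an X2 match and 2 CCAAT boxes. B2m held the same 4 motifs with the IRF core ahead of the kappa B match and a further X2 match after the start, and Tap1 held a CCAAT box and an X2 match but no kappa B or IRF core match. Among 32851 mouse promoters of this length, 20.7% hold the kappa B letters, 23.9% the IRF core, 20.8% the X2 letters and 37.4% a CCAAT box, so that any single match is common and is given as a description only. The Psmb8 window matched only a STAT site (TTCNNNGAA, in 8.30% of promoters), Tapbp 2 CCAAT boxes, and Psmb10 none of the 5 motifs.

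Libraries held 6249018 to 12866718 counts, and levels are given as CPM, counts scaled to the normalised library total with 1 scaling over the 12 libraries. CD4+ T cell markers (Cd4, Cd3d, Cd3e, Cd3g, Lck and Cd5) summed to 1988 to 3310 CPM in every library, against 4.43 to 13.2 for Cd8a and Cd8b1. On day 2, LIP 96 and LIP 97 stood apart from the other libraries, at 43.2 and 38.8 on a first principal component that carried 47.5% of the variance, with LIP 90 at -8.45 and the CTL group between -33.1 and -18.4. Cd74, the class II invariant chain of B cells and other presenting cells, was at 26, 27.6 and 25 CPM in CTL 97, LIP 96 and LIP 97 against no more than 3.47 in the other 9 libraries. The other B cell and class II genes listed were also highest on day 2 in these 3 libraries, except H2-Ab1, which was at 6.46 and 7.90 CPM in LIP 96 and LIP 97 and at 12.5 to 15.05 in the other libraries of day 2. On day 0, CTL 94 lay among the LIP libraries on the first component (13.8, with the LIP group between 6.90 and 19.1 and the other CTL libraries at -37 and -19.1). In bulk RNA, fewer cells of a type and less RNA per cell cannot be told apart.

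Per kilobase of transcript, B2m and the heavy chains stood far above the rest in all 4 groups. In CTL cells on day 0, B2m was at 808 ± 64.5 CPM per kb, H2-D1 at 704 ± 30.5 and H2-K1 at 568 ± 39.4 (mean ± SD, n = 3 libraries), and these 3 did not overlap. The other members lay between 29.9 ± 1.67 (Tap2) and 99.8 ± 4.99 CPM per kb (Tapbp). Neighbours in that order overlapped at Psmb8 and Tap1, at Nlrc5 and Psmb9, and at Psmb10 and Tap2. In LIP cells on day 0, H2-D1 (667 ± 32.8) was above B2m (633 ± 92.2) on average and overlapped it. On day 2 H2-D1 and H2-K1 overlapped in LIP cells. After 2 days of culture Psmb10 was the lowest member per kilobase in both groups, at 14 ± 0.980 in CTL cells and 20.7 ± 4.28 in LIP cells, and Tap1 was the highest on average after B2m and the heavy chains, overlapping with the next gene in both groups.

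**Figure D1:**
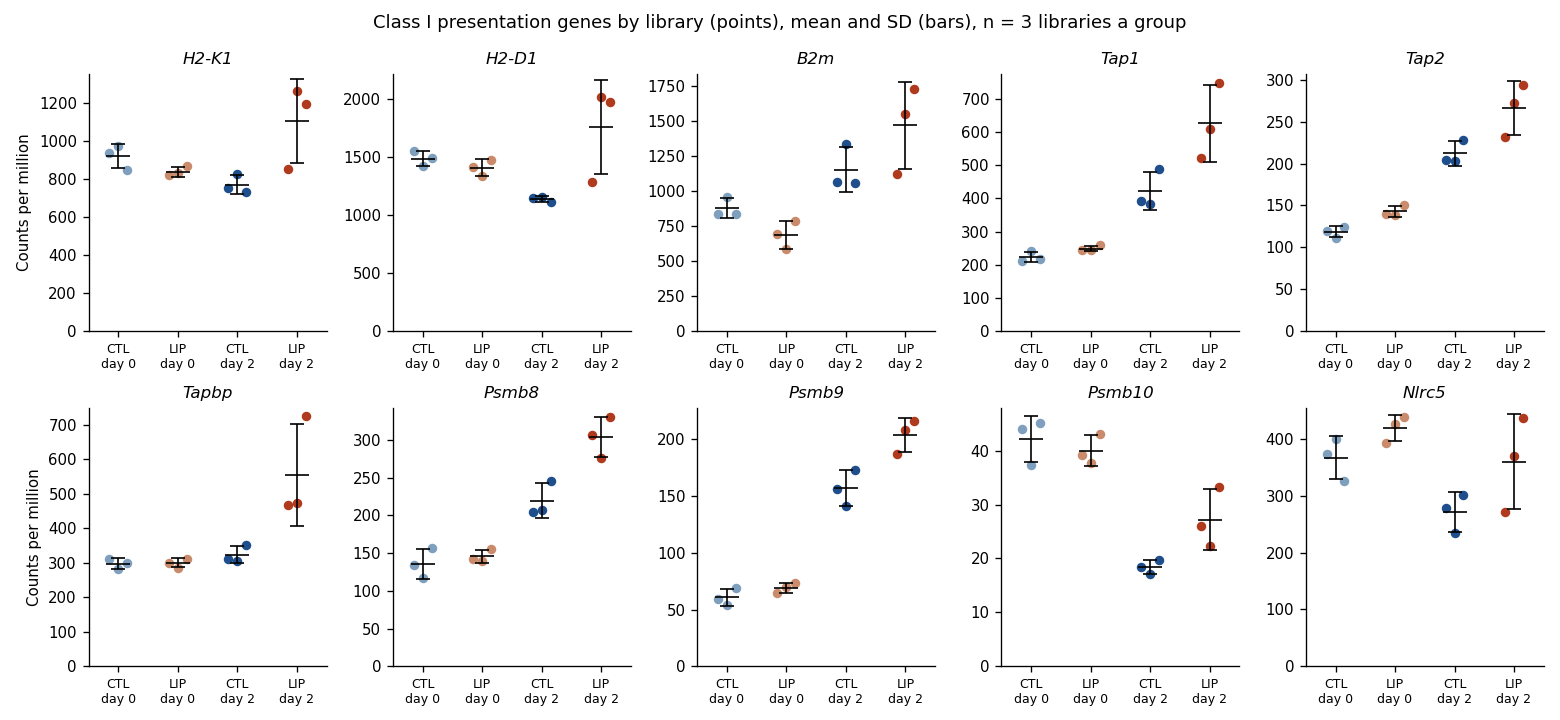
CPM of the 10 members in each library (points) and the group mean with its SD over 3 libraries (bars), on linear axes from 0. The LIP libraries of day 2 spread widely, with LIP 90 the lowest of them for all members but Psmb8 and Psmb10, and Psmb10 is the member whose day 2 libraries all lie below its day 0 libraries.

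Differences were tested over all genes with edgeR's quasi-likelihood test, and a gene was called when its Benjamini-Hochberg adjusted p was under 0.05. In CTL cells, Psmb9, Tap1, Tap2, Psmb8 and B2m rose between day 0 and day 2 and Psmb10, Nlrc5, H2-D1 and H2-K1 fell. This is 5 members called higher where 36.2% of all 14621 genes were, and 4 called lower where 34.7% were. In LIP cells 7 members rose, namely those 5 with Tapbp and H2-K1, beside 36.1% of all 14310 genes, and Psmb10 alone fell, beside 35.4%. The median log2 fold change of the members was 0.24 in CTL cells and 0.88 in LIP cells, against -0.01 and 0.01 over all genes. Upper-quartile scaling moved the median over all genes to -0.28 in CTL and -0.29 in LIP cells and the calls from 5287 higher and 5068 lower to 4183 and 6510 in CTL cells, and from 5161 and 5068 to 3944 and 6501 in LIP cells. Under it, B2m in CTL cells (0.10, adjusted p = 0.445) and H2-K1 in LIP cells (0.09, adjusted p = 0.656) were not called, Tapbp in CTL cells turned to -0.17 (adjusted p = 0.103), Nlrc5 was called lower in LIP cells (-0.53, adjusted p = 0.0247), and the other calls of members kept their direction.

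Between LIP and CTL, no member was called on either day. On day 0, 0 of 10 were called higher (0.0569% of 14064 genes) and 0 lower (0.37%), while at an unadjusted p under 0.05 Tap2, Nlrc5 and Tap1 were higher (3 members, against 6.67% of genes) and B2m lower (1 member, against 7.2%). The libraries of the groups did not overlap for Tap2 and Tap1, which were higher (2 members, against 9.26% of genes), and for B2m, which was lower (1 member, against 9.85%). On day 2, 0 members were called in either direction, as were 0 of 14041 genes higher (0%) and 0 lower (0%). All 10 were above CTL on average on day 2. Of these, 8 were at an unadjusted p under 0.05, where 8.33% of all genes were higher and 8.2% lower. Without overlap there were 8, where 10.9% of genes were higher and 10.5% lower. The members were chosen with earlier results known and some may share reads, so these counts are no independent support for a difference. The median log2 difference of the members was 0.06 on day 0 and 0.49 on day 2, against 0.01 and -0.01 over all genes. DESeq2 called 1 member on day 0 (B2m, lower), beside 0.263% of all genes higher and 1.17% lower, and 3 on day 2 (Tapbp, H2-D1 and Psmb8, higher), beside 2.04% higher and 1.42% lower.

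Whether the change from day 0 to day 2 differed between the groups was tested with the interaction of group and day over all 12 libraries. The estimate was above 0 for all 10 members, which means a larger rise or a smaller fall in LIP cells, with a median of 0.52 against -0.00 over all genes. None was called (0 of 10 higher, against 0.0323% of 15475 genes, and 0 lower, against 0.0194%). At an unadjusted p under 0.05 there were 7, all higher, where 8.65% of genes were higher and 7.28% lower, and DESeq2 called Tapbp, H2-K1 and H2-D1 higher, beside 2.4% of genes higher and 0.963% lower. This test shares its LIP and CTL libraries with the comparisons above and is no separate evidence of them.

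The day 2 difference rested on its 3 LIP libraries unequally. Without LIP 90, 9 members were called higher (all but Psmb10, adjusted p = 0.058), together with 1119 genes higher (7.74%) and 895 lower (6.19%) in all. Without LIP 96 or without LIP 97 no member was called. The interaction without LIP 90 was called for H2-K1, H2-D1, B2m and Tapbp, beside 5.64% of genes higher and 4.45% lower. With the antibody label as a block, chosen after the data were seen, no member was called on day 2 (the lowest adjusted p was 0.161, for Tapbp) or in the interaction (0.0527, for Tapbp). Summed B cell and class II markers (8 genes) ranged from 19.1 to 73.7 CPM in CTL and from 18.4 to 60.0 in LIP cells on day 2, and their part in these differences was not tested.

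**Figure D2:**
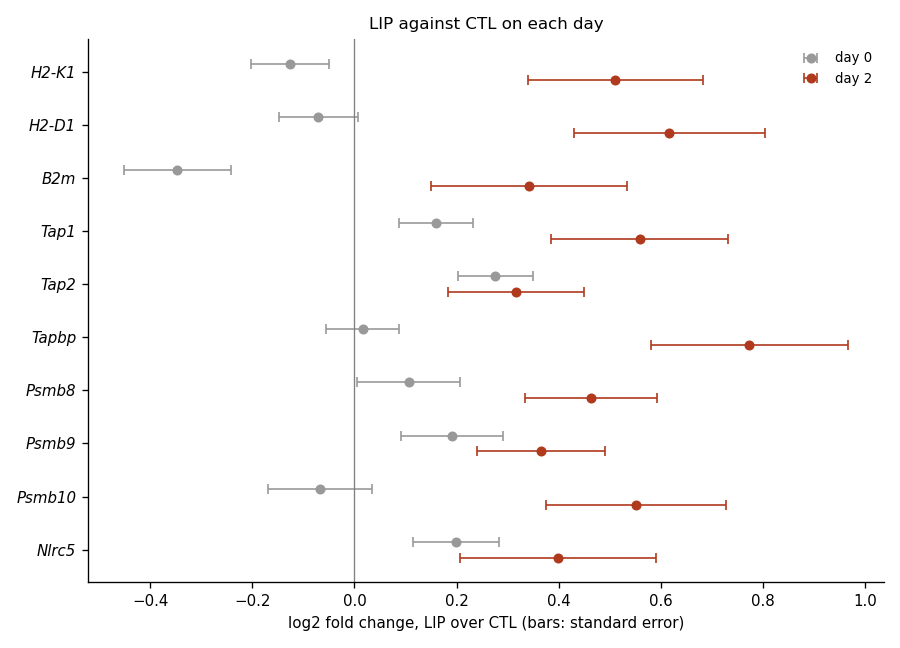
Log2 fold change of LIP over CTL for each member on day 0 (grey) and day 2 (red), with standard errors of the edgeR fit as bars. On day 0 the members lie on both sides of 0, from -0.35 for B2m to 0.28 for Tap2, and on day 2 all lie above 0, from 0.32 for Tap2 to 0.77 for Tapbp.

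With culture, H2-K1 and H2-D1 fell in CTL cells, H2-K1 rose in LIP cells, and B2m, the light chain shared by class I molecules, rose in both groups. H2-K1 was at 937, 974 and 850 CPM in CTL and 819, 831 and 869.6 in LIP libraries on day 0. On day 2 it was at 755, 827 and 729.9 CPM in the CTL libraries and at 855, 1265 and 1195 in LIP 90, 96 and 97. The day 0 groups overlapped, whereas on day 2 each LIP library was above each CTL library, LIP 90 by little. H2-D1 was at 1553, 1424 and 1492 CPM in CTL and 1414, 1342 and 1481 in LIP libraries on day 0. By day 2 it stood at 1154, 1156 and 1115 CPM in CTL and 1291, 2020 and 1973 in LIP libraries. Here too the groups overlapped on day 0 and were apart on day 2, with the CTL libraries close together.

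In CTL cells H2-D1 fell by 0.40 on the log2 scale (SE 0.09, adjusted p = 0.00208) and H2-K1 by 0.28 (SE 0.10, adjusted p = 0.0236). The call of H2-K1 was lost without CTL 88 or CTL 89 of day 0 or without CTL 92 or CTL 97 of day 2, with adjusted p between 0.0236 and 0.0817 over the libraries left out. Over the other processing settings the H2-K1 change was between -0.54 and -0.23, with adjusted p from 0.000496 to 0.0933. In LIP cells H2-K1 rose by 0.38 (SE 0.15, adjusted p = 0.0481) with LIP 90 inside the range of day 0. This call was lost without any 1 of 5 of the 6 libraries and kept without LIP 90. H2-D1 differed by 0.30 in LIP cells (SE 0.17, adjusted p = 0.143) and passed without LIP 90 (0.50, adjusted p = 0.000234). Over the other processing settings the H2-D1 change was as low as 0.01, with adjusted p up to 0.964. The difference of LIP from CTL on day 2 was 0.62 for H2-D1 (1.53-fold, SE 0.19, adjusted p = 0.184) and 0.51 for H2-K1 (1.42-fold, SE 0.17, adjusted p = 0.209). On day 0 these were -0.07 (adjusted p = 0.721) and -0.13 (adjusted p = 0.492). The interaction was 0.70 for H2-D1 (SE 0.20, adjusted p = 0.119) and 0.65 for H2-K1 (SE 0.18, adjusted p = 0.118).

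B2m was at 837, 958.5 and 837 CPM in CTL and 691, 585 and 785.5 in LIP libraries on day 0, and each LIP library was below each CTL library. After culture it was at 1062, 1337 and 1057 CPM in CTL and 1125, 1552 and 1728 in LIP libraries, and the groups overlapped. B2m rose with culture by 0.37 in CTL cells (SE 0.12, adjusted p = 0.0133) and by 1.08 in LIP cells (2.12-fold, SE 0.18, adjusted p = 0.000735). The rise in CTL cells was not called without CTL 88 (0.34, adjusted p = 0.0617) or without CTL 93 (0.27, adjusted p = 0.0538). LIP differed from CTL by -0.35 on day 0 (SE 0.10, adjusted p = 0.177) and by 0.34 on day 2 (SE 0.19, adjusted p = 0.408), and the interaction was 0.70 (SE 0.23, adjusted p = 0.152). The day 2 difference was 0.53 without LIP 90 (adjusted p = 0.0358) and 0.21 without LIP 97 (adjusted p = 0.711). It was the only member with an interaction p under 0.05 whose LIP libraries on day 2 overlapped the CTL libraries, and its interaction is made of differences of opposite sign on the 2 days.

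The heavy chain records carry an uncertainty of counting. BALB/c mice bear other class I alleles than the C57BL/6J reference, and H2-K1 and H2-D1 had expected counts that were not whole in 12 of 12 libraries, as reads shared between records give. When H2-K1, H2-D1 and the other class I heavy chain records were summed, 17 records gave 3433 to 3716 CPM on day 0 in both groups, 2920 to 3026 in CTL cells on day 2, and 3567, 5144 and 5167 in LIP 90, 96 and 97. H2-K1 and H2-D1 held 60.2% to 67.0% of this sum. The summed record fell by 0.30 in CTL cells (SE 0.09, adjusted p = 0.0128), and differed by 0.37 between the days in LIP cells (SE 0.16, adjusted p = 0.0634). LIP over CTL it differed by -0.02 on day 0 (adjusted p = 0.914) and by 0.63 on day 2 (SE 0.18, adjusted p = 0.172), with an interaction of 0.67 (adjusted p = 0.11). Antisense records also overlap exons of H2-K1 (855 bases) and H2-D1 (723 bases), and whether counting used the strand is not stated.

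Of the transport and loading genes, Tap1 and Tap2, whose products form the transporter, rose with culture in both groups, while Tapbp, which encodes tapasin, was called in LIP cells and not in CTL cells. Tap1 was at 213, 242 and 216.5 CPM in CTL and 244, 244 and 259 in LIP libraries on day 0. On day 2 it was at 393, 384 and 489 CPM in CTL and 520.1, 608 and 748 in LIP libraries. The groups did not overlap on either day, and the gap on day 0 was small. Tap2 was at 120.2, 111.5 and 124.5 CPM in CTL and 139, 139 and 151 in LIP libraries on day 0. On day 2 the CTL libraries were at 204, 203 and 229 CPM and the LIP libraries at 231, 272 and 294. LIP was again above CTL without overlap on both days, although LIP 90 was only just above CTL 97. Tapbp was at 311, 282 and 298.5 CPM in CTL and 300.1, 286 and 312 in LIP libraries on day 0. The day 2 levels were 311, 306 and 350.4 CPM in CTL and 466, 471 and 725 in LIP libraries. Tapbp was thus between 282 and 350.4 CPM in 9 of the libraries and higher than that in the 3 LIP libraries of day 2.

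Tap1 rose by 0.89 in CTL cells (SE 0.11, adjusted p = 2.84e-05) and by 1.31 in LIP cells (SE 0.14, adjusted p = 6.03e-05), and Tap2 by 0.82 (SE 0.09, adjusted p = 1.78e-05) and 0.88 (SE 0.11, adjusted p = 0.000181). Tapbp differed by 0.10 in CTL cells (SE 0.09, adjusted p = 0.366) and rose by 0.87 in LIP cells (1.83-fold, SE 0.17, adjusted p = 0.00204). The difference between these responses was 0.77 (SE 0.21, adjusted p = 0.107). On day 2 LIP over CTL was largest for Tapbp among the members (0.77, 1.71-fold, SE 0.19, adjusted p = 0.14). It was 0.56 for Tap1 (SE 0.17, adjusted p = 0.189) and 0.32 for Tap2 (SE 0.13, adjusted p = 0.286), the smallest of the members. On day 0 Tap2 differed by 0.28 (SE 0.07, adjusted p = 0.142), Tap1 by 0.16 (SE 0.07, adjusted p = 0.356) and Tapbp by 0.02 (adjusted p = 0.945). Tap2 was called on day 0 without CTL 94 (0.31, adjusted p = 0.0376). Its interaction was 0.06 (SE 0.14, adjusted p = 0.899), with LIP above CTL on both days. Exons of Tapbp share 923 bases with Zbtb22 on the same strand, and its counts were not whole in 12 of 12 libraries.

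**Figure D3:**
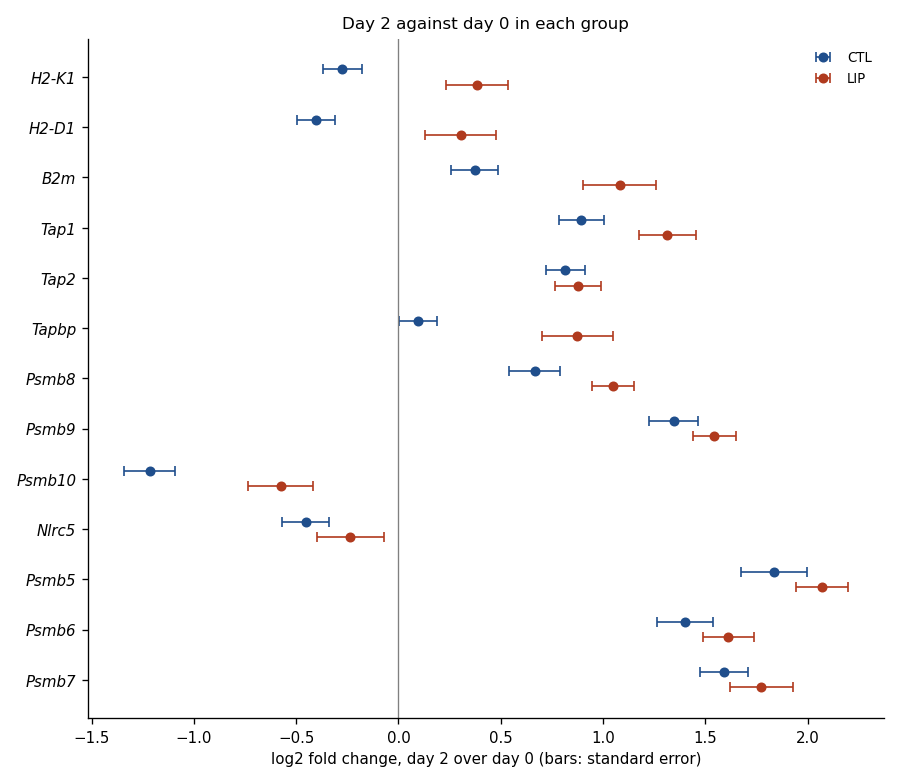
Log2 fold change of day 2 over day 0 in CTL cells (blue) and LIP cells (red) for the members and for the constitutive subunits Psmb5, Psmb6 and Psmb7, with standard errors as bars. H2-K1 and H2-D1 lie below 0 in CTL and above 0 in LIP cells, Tapbp is near 0 in CTL cells only, and Psmb10 lies below 0 in both groups while the 3 constitutive subunits lie above 1.

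The immunoproteasome subunits did not move as a unit. Psmb8 and Psmb9, which lie in the MHC, rose with culture in both groups, and Psmb10, on chromosome 8, fell in both. Psmb8 was at 134, 117 and 157 CPM in CTL and 142, 140 and 155 in LIP libraries on day 0. After 2 days of culture it was at 205, 207 and 246 CPM in CTL and 307, 277 and 330 in LIP libraries. The day 0 ranges overlapped and those of day 2 did not. Psmb9 was at 59.1, 54.4 and 69.2 CPM in CTL and 64.3, 69.8 and 73.5 in LIP libraries on day 0. On day 2 the levels were 157, 141.5 and 173 CPM in CTL and 187, 208 and 216 in LIP libraries. These too overlapped on day 0 only. Psmb10 was at 44, 37.3 and 45.1 CPM in CTL and 39.1, 37.7 and 43.2 in LIP libraries on day 0. On day 2 it was at 18.4, 17.1 and 19.6 CPM in CTL and 26, 22.3 and 33.3 in LIP libraries. Every library of day 2 was below every library of day 0, and on day 2 each LIP library was above each CTL library.

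Psmb9 rose by 1.35 in CTL cells (2.54-fold, SE 0.12, adjusted p = 2.36e-06) and by 1.54 in LIP cells (2.92-fold, SE 0.10, adjusted p = 5.67e-06). Psmb8 rose by 0.67 (SE 0.12, adjusted p = 0.000594) and by 1.05 (SE 0.10, adjusted p = 4.1e-05). Psmb10 fell by 1.22 on the log2 scale in CTL cells (0.430-fold, SE 0.13, adjusted p = 7.03e-06) and by 0.58 in LIP cells (0.671-fold, SE 0.16, adjusted p = 0.0101). On day 2 LIP over CTL was 0.55 for Psmb10 (SE 0.18, adjusted p = 0.195), 0.46 for Psmb8 (SE 0.13, adjusted p = 0.162) and 0.37 for Psmb9 (SE 0.13, adjusted p = 0.213). On day 0 it was -0.07, 0.11 and 0.19 for the same genes (adjusted p = 0.808, 0.676 and 0.425). With 1 library left out these day 0 values ranged from -0.16 to -0.015 for Psmb10, from 0.0035 without CTL 89 to 0.22 without CTL 94 for Psmb8, and from 0.11 to 0.29 for Psmb9 without the same libraries. The interaction was 0.63 for Psmb10 (SE 0.20, adjusted p = 0.152), 0.37 for Psmb8 (adjusted p = 0.298) and 0.19 for Psmb9 (adjusted p = 0.617), and without CTL 94 it was 0.24 for Psmb8 and 0.07 for Psmb9. Psmb9 shares 743 exonic bases with Tap1 on the opposite strand, 19.6% of its own, and the counts of both were not whole in 9 of 12 libraries.

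Each immunoproteasome subunit replaces a constitutive counterpart, Psmb8 that of Psmb5, Psmb9 that of Psmb6 and Psmb10 that of Psmb7, and their ratio within a library does not depend on the scaling between libraries. The constitutive genes rose with culture, Psmb5 by 1.83 in CTL and 2.07 in LIP cells, Psmb6 by 1.40 and 1.61, and Psmb7 by 1.59 and 1.77 (adjusted p at most 1.95e-05 for each). None of them was called between LIP and CTL on either day, where the adjusted p was 0.546 at the lowest. Per kilobase, the ratio of Psmb8 to Psmb5 was 8.83 ± 1.46 in CTL and 9.69 ± 0.484 in LIP libraries on day 0, and 3.89 ± 0.124 and 4.80 ± 0.725 on day 2 (mean ± SD, n = 3). Psmb10 to Psmb7 went from 0.799 ± 0.0332 to 0.114 ± 0.00536 in CTL and from 0.740 ± 0.102 to 0.149 ± 0.0441 in LIP libraries. Both ratios were thus lower in every library of day 2 than in every library of day 0. Psmb9 to Psmb6 was 1.49 ± 0.241, 1.73 ± 0.0904, 1.43 ± 0.219 and 1.67 ± 0.300 in the CTL and LIP groups of day 0 and of day 2, and its days overlapped. The counts of Psmb5 and Psmb7 were not whole in 12 of 12 libraries, as reads shared between records give, and those of Psmb6 in 0. The ratios to Psmb5 and Psmb7 carry this uncertainty of counting.

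The log2 ratio of Psmb10 to Psmb7 differed between the days by -2.80 in CTL and -2.35 in LIP cells, that of Psmb8 to Psmb5 by -1.17 and -1.02, and that of Psmb9 to Psmb6 by -0.06 and -0.06. With 3 libraries against 3, the two-sided exact permutation test cannot go below p = 0.1, which the first 4 of these reached (0.2 after adjustment over the 12 comparisons of ratios), against p = 0.5 and 0.9 for Psmb9 to Psmb6. Between LIP and CTL, Psmb8 to Psmb5 was 4.34, 4.42 and 5.63 in LIP and 4.03, 3.86 and 3.79 in CTL libraries on day 2, without overlap (log2 difference 0.29, exact p = 0.1, adjusted 0.2). Psmb9 to Psmb6 did not overlap on day 0 (log2 difference 0.23, exact p = 0.1, adjusted 0.2), and the other 4 comparisons between the groups overlapped (exact p between 0.3 and 0.6).

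**Figure D4:**
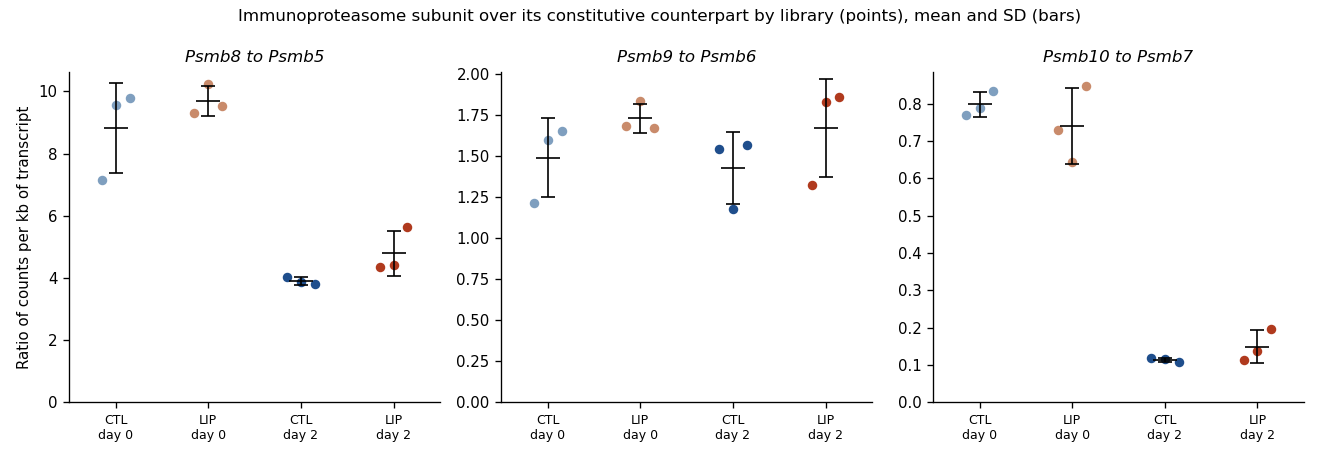
Ratio of each immunoproteasome subunit to its constitutive counterpart, in counts per kilobase, by library (points) with mean and SD (bars), on linear axes from 0. In CTL libraries the mean of Psmb8 to Psmb5 is 8.83 on day 0 and 3.89 on day 2 and that of Psmb10 to Psmb7 is 0.799 and 0.114, while their ratio of Psmb9 to Psmb6 lies between 1.18 and 1.66 on both days.

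Nlrc5, which encodes the transactivator of class I genes, fell with culture in CTL cells, as did H2-K1, H2-D1 and Psmb10, while 5 other members rose. It was at 373, 400.2 and 326 CPM in CTL and 393, 426 and 438 in LIP libraries on day 0. Its day 2 levels were 278, 234 and 302 CPM in CTL and 271, 370.3 and 437 in LIP libraries. The groups overlapped on both days, on day 2 because LIP 90 lay within the CTL range. Nlrc5 fell by 0.45 in CTL cells (SE 0.11, adjusted p = 0.00414) and differed by -0.24 in LIP cells (SE 0.17, adjusted p = 0.227). LIP differed from CTL by 0.20 on day 0 (SE 0.08, adjusted p = 0.326) and by 0.40 on day 2 (SE 0.19, adjusted p = 0.343), and the interaction was 0.21 (SE 0.22, adjusted p = 0.688). These values moved with single libraries of day 2. Without LIP 90 the day 2 difference was 0.59 (adjusted p = 0.0207), the interaction 0.38 and the change in LIP cells -0.05, and without LIP 97 they were 0.24, 0.05 and -0.38 (none of the other values called). Without CTL 93 the interaction was 0.12, and without CTL 94 the day 0 difference was 0.12. Over the 12 libraries, the correlation of Nlrc5 was 0.65 with H2-D1 and -0.43 with Psmb9 on log2 CPM. With each group's mean subtracted, it was 0.68 and 0.40, and 0.88 with Tap1. These correlations describe libraries that share the processing steps and differ in depth, and no p is given.

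The members were also compared with each other and with other genes over the libraries. Of 45 pairs of members, 34 had a positive correlation over the 12 libraries as measured (median 0.42), and 42 after the group means were subtracted (median 0.49, from -0.36 for H2-K1 with Psmb8 to 0.89 for H2-K1 with H2-D1). The mean of the members' standardised log2 CPM was 0.31, 1.06 and 1.51 in LIP 90, 96 and 97, and from -0.47 to -0.10 in the other 9 libraries. Outside the lists named here, Rnf114, Daxx, Nars, Tmem219 and Aldh18a1 had the profiles most like that mean among 12296 genes (Pearson r from 0.966 to 0.975 over 12 libraries). Nars, an asparaginyl-tRNA synthetase gene, was at 112 ± 5.58 CPM in CTL and 385 ± 191 in LIP libraries of day 2, and Rnf114, a ubiquitin ligase gene, at 122 ± 11.9 and 324 ± 147. After subtraction of the group means the nearest were AU040320, Mtmr3, Lrrc8d, Tars and Lrwd1 (r from 0.929 to 0.95). The members' mean after subtraction was -1.53 in LIP 90 and 1.49 in LIP 97, and from -0.36 to 0.62 in the other libraries. How far the correlations after subtraction, those of Nlrc5 included, rest on LIP 90 and LIP 97 was not tested. The share of positive pairs among other genes was not computed.

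The other genes of the pathway were read from the same fits. Of 18 further class I heavy chain genes, 15 were matched by symbol and 13 passed the filter. In CTL cells 1 of the 13 rose (36.2% of all genes did) and 6 fell with culture (34.7%), and in LIP cells 4 rose (36.1%) and 3 fell (35.4%). On day 2 all 13 were higher in LIP than in CTL cells on average, 10 of them at an unadjusted p under 0.05, where 8.33% of all genes were higher, and 0 called (median log2 difference 0.61). H2-T23, the gene of the nonclassical molecule Qa-1, rose in both groups. It was at 315, 267 and 308 CPM in CTL and 381, 559 and 638 in LIP libraries on day 2, without overlap (log2 difference 0.82, SE 0.20, adjusted p = 0.138). H2-T24 had the largest difference of the list, at 51.4, 31 and 57.4 CPM in CTL and 112.5, 88 and 149 in LIP libraries (1.31, SE 0.26, adjusted p = 0.118). The counts of H2-Q4, H2-Q6, H2-Q7 and H2-T23 were not whole in 12 of 12 libraries, and records that share reads are no separate measurements.

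The PA28 activator, the cap that opens the proteasome and is known to favour class I peptides, is made of Psme1 and Psme2, and both rose with culture in both groups. Psme1 rose by 1.14 in CTL and 1.33 in LIP cells and Psme2 by 1.19 and 1.62. On day 2 Psme2 was at 167, 155 and 197 CPM in CTL and 219, 219.5 and 280.2 in LIP libraries, which do not overlap (0.46, adjusted p = 0.205), and Psme1 differed by 0.22 with overlap (adjusted p = 0.506). The assembly factors Pomp, Psmg1 and Psmg2 rose in both groups, as Pomp did by 1.51 and 1.47. Beside these and the PA28 genes, 36.2% of all genes rose in CTL and 36.1% in LIP cells. On day 2 LIP over CTL was 0.49 for Psmg1, without overlap (adjusted p = 0.239), 0.17 for Psmg2 (adjusted p = 0.711) and -0.10 for Pomp (adjusted p = 0.834), both with overlap. Of the loading and trimming genes Calr, Canx, Pdia3, Tapbpl and Erap1, 4 of 5 rose in CTL and 5 of 5 in LIP cells, beside the same shares of all genes. Canx, the calnexin gene, rose by 1.57 and 1.61, and Tapbpl, which encodes a peptide editor related to tapasin, by 0.67 and 1.24. On day 2 LIP over CTL was 0.39 for Tapbpl (adjusted p = 0.303) and -0.27 for Calr, -0.26 for Pdia3 and -0.06 for Canx (adjusted p from 0.495 to 0.907).

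**Figure D5:**
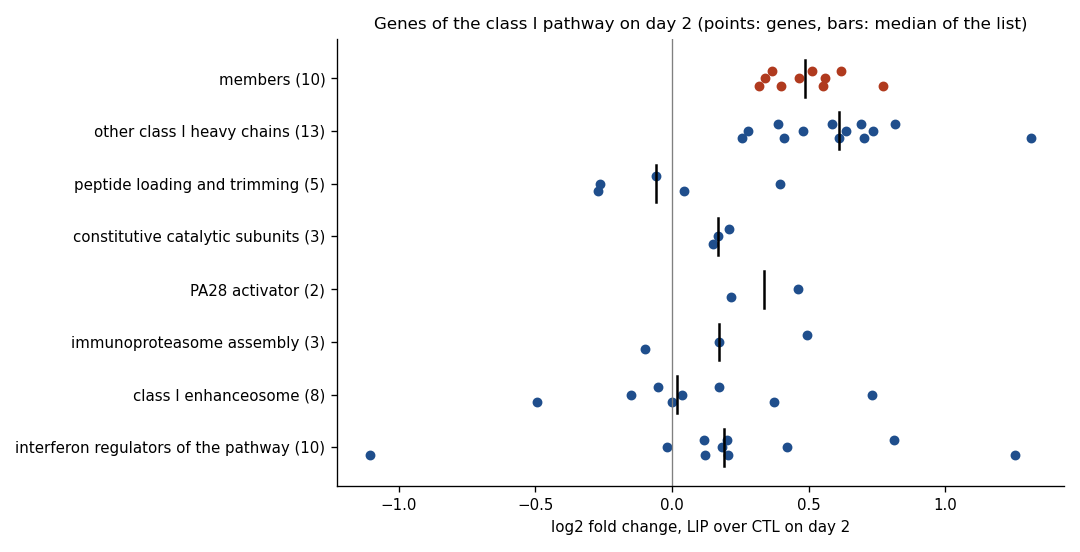
Log2 fold change of LIP over CTL on day 2 for the genes of each list that passed the filter (points; the number of genes stands in brackets), with the median of each list (bars). The members and the other class I heavy chains all lie above 0 with medians of 0.49 and 0.61, while the chaperones and trimming genes have a median of -0.06 and the constitutive subunits of 0.17.

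Among 10 interferon regulators of the pathway, 3 rose and 5 fell with culture in CTL cells, where 36.2% of all genes rose and 34.7% fell. In LIP cells 4 rose and 2 fell, beside 36.1% and 35.4% of all genes. Ifng, the gene of interferon gamma, rose in both groups, by 3.14 in CTL and 2.09 in LIP cells. It was at 40.6, 28.9 and 16.1 CPM in CTL and 21.3, 11.5 and 7.00 in LIP libraries on day 2, with overlap (log2 difference -1.10, SE 0.42, adjusted p = 0.248). The transcript of Stat2, which carries signals of type I interferons, was at 125, 73.4 and 83.4 CPM in CTL and 198, 192 and 287 in LIP libraries (1.26, 2.39-fold, SE 0.24, adjusted p = 0.108). So on day 2 the LIP libraries were above the CTL libraries for Stat2 and below or among them for Ifng. Irf1, a known activator of Tap1 and Psmb9, differed by 0.12 (adjusted p = 0.76) and the receptor gene Ifngr1 by 0.20 (adjusted p = 0.637). At an unadjusted p under 0.05 there were 3 of the 10 higher and 1 lower on day 2, beside 8.33% and 8.2% of all genes, and 0 higher and 2 lower on day 0 (Irf2 and Ifngr1), beside 6.67% and 7.2%.

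The 8 genes of the factors that assemble with NLRC5 on the SXY module (RFX, NF-Y, CREB1 and ATF1) were also read. In CTL cells 2 rose and 2 fell with culture, beside 36.2% and 34.7% of all genes, and in LIP cells 3 rose and 3 fell, beside 36.1% and 35.4%. Nfya was at a log2 difference of -0.27 on day 0 (adjusted p = 0.139) and 0.73 on day 2 (adjusted p = 0.183), with an interaction of 1.02 (SE 0.25, adjusted p = 0.0889), and Rfx5 was at -0.49 on day 2 (adjusted p = 0.15). The medians over the 8 genes were -0.10 and 0.02 on the 2 days.

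Markers of other cells were summed on day 2 beside these differences. CD8 T cell markers (2 genes) were at 4.43 to 6.33 CPM in CTL and 4.93 to 13.2 in LIP libraries, myeloid markers (8 matched of 10) at 3.94 to 4.86 and 2.78 to 8.24, and erythroid markers (2 matched of 5) at 0.740 to 1.91 and 0.777 to 1.075. NK cell markers (4 matched of 5) were at 4.66 to 7.19 in CTL and 13.95 to 33.0 in LIP libraries without overlap. That sum lay mostly in Klrk1, an activating receptor gene that activated T cells can also express, at 3.70 to 6.02 CPM in CTL and 10.6 to 30.6 in LIP libraries (1.91, adjusted p = 0.119). Eomes, a transcription factor gene of NK cells and of some T cells, was also higher without overlap, at 0.955 to 1.06 CPM in CTL and 1.25 to 2.33 in LIP libraries (0.91, adjusted p = 0.274). The NK receptor genes Ncr1 (0.0731 ± 0.0634 CPM in CTL and 0.198 ± 0.154 in LIP libraries) and Klrb1c (0.0379 ± 0.0656 and 0.250 ± 0.432, mean ± SD, n = 3) had few counts and overlapped, with Klrb1c at 0 in CTL 92, CTL 93, LIP 90 and LIP 97. On day 0 the NK sum was 13.1 to 27.1 CPM in CTL and 21.8 to 28.9 in LIP libraries, so that it was lower on day 2 without overlap in CTL libraries and overlapped between the days in LIP libraries. Over both groups the day 0 sums were 4.21 to 12.8 CPM for the B cell and class II list and 1988 to 2280 for the CD4 list, below those of day 2, and 6.26 to 15.5 for the myeloid list, above those of day 2 within each group. The part of these markers in the members' differences was not tested.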

How the data were processed

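Bulk RNA of 12 libraries was analysed, and the sample title, which matches the name of a column of counts, gave each library its group and day. The authors trimmed reads after FastQC 0.11.9, aligned them to GRCm39 with HISAT2 and deposited expected counts per gene from RSEM 1.3.0 with Bowtie2, without normalization or a stated use of strand. For day 0 and day 2 separately, the authors deposited a further table of normalised signal per library, from which only gene symbols were read, with their fold changes and p-values, which were not used. There were 2 columns of signal that belong to no labelled sample, and they were left out.

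The expected counts (73267 not whole) were rounded and fitted in R 4.3.3 with the quasi-likelihood test of edgeR 4.0.16 after filterByExpr and TMM normalization. Each day was fitted alone, day 2 over day 0 within each group, and the interaction on all 12 libraries, and p-values were adjusted by Benjamini-Hochberg over all genes. Standard errors (SE) were taken as the log2 fold change over the square root of F, and CPM came from TMM over all 12 libraries. Levels per kilobase used the canonical GENCODE M39 transcript. Exact permutation tests of ratios were two-sided. The scripts were tested on simulated data with 200 changed genes.

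The genes named are the members, listed genes of the pathway and cell markers, and the 5 genes with the highest correlation to the members' mean, over libraries as measured and after group means were subtracted. The members and lists were chosen with earlier results of these data known. Alternatives were RLE and upper-quartile scaling, DESeq2 1.42.0, no filter, at least 10 counts in every library, 1 fit of all 12 libraries, heavy chain records summed, counts not rounded for the ratios, leaving out each library and, added after seeing the data, the antibody named by the day 2 treatment label as a block. Of the listed genes, 1 regulator and 1 marker are not reported here and are in no count or sum of a list. Figures were drawn with Python 3.11.15 and matplotlib 3.10.9. Intervals of counting error were not computed, and precision rests on the spread between libraries.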

Additional observations from a re-analysis of the deposited data

How the results depend on the processing

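The count of members called between LIP and CTL was 0 on each day and moved with the settings. On day 0 it was 1 with DESeq2 and 2 without a filter on low counts, and from 0 to 1 over the fits with a library left out, the 1 without CTL 94. On day 2 it was 3 with DESeq2, 3 without a filter, 6 with all 12 libraries in 1 fit, and from 0 to 9 with a library left out, the 9 without LIP 90. For the interaction, 0 became 3 with DESeq2, 4 without a filter and between 0 and 4 with each library left out, the 4 again without LIP 90. The causes of these shifts were not tested, and the calls over all genes under these settings are given below. The counts called with culture stayed within 1.5 times of 9 in CTL and 8 in LIP cells under every alternative.

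Of the members' log2 fold changes under alternatives, 612 kept direction and side of the threshold, 38 gained and 16 lost a call, and 4 reversed. The reversals were Tapbp on day 0 (from -0.0263 to 0.0487 over the libraries left out, with -0.0148 without LIP 94), Tap2 in the interaction (from -0.0191 to 0.15), and Tapbp with culture in CTL cells under upper-quartile scaling (-0.17). All 84 values of the ratios under alternatives moved by less than 1 SD of the libraries, and their test, which cannot pass the threshold here, says nothing of stability. Counts over all genes on day 2 went from 0 higher and 0 lower to 1119 and 895 without LIP 90, 286 and 199 with DESeq2, 409 and 253 without a filter and 446 and 329 in 1 fit. The genes tested were 14041 in the main fit and with DESeq2, 14453 without LIP 90, 25712 without a filter and 15475 in 1 fit. On day 0 the counts called went from 8 and 52 to 257 and 401 without CTL 94, 37 and 165 with DESeq2, 263 and 382 without a filter and 1 and 11 in 1 fit. Here the genes tested were 14064 in the main fit and with DESeq2, 14343 without CTL 94, 25644 without a filter and 15475 in 1 fit. For the interaction the counts called went from 5 and 3 to 892 and 704 without LIP 90, 371 and 149 with DESeq2 and 514 and 301 without a filter. Genes tested were 15475 in the main fit and with DESeq2, 15823 without LIP 90 and 28221 without a filter.

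No paired analysis was possible because the groups compared share at most 1 replicate number, 94 on day 0 and 97 on day 2, except by the antibody label of day 2, which 1 CTL and 1 LIP library share for each antibody. With that label as a block, added after seeing the data, 0 members were called on day 2 and 0 in the interaction, and the calls over all genes were 0 and 0 on day 2 and 46 higher and 16 lower in the interaction. Deviations from the group means had r from -0.099 to -0.052 in CTL and LIP libraries of the same label, over 14041 genes. In pairs with different labels r was from -0.021 to 0.125. With 1 library of each group to a label, label and library cannot be told apart. With 3 libraries a group, a difference between LIP and CTL of the size seen here on day 2 passes or misses the threshold with the choice of library or tool, and a miss does not show that the groups are alike.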
